A study of Mus musculus with 8 samples.

Results

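The genes described here are 10 identity genes of meningeal fibroblasts, none of them a collagen, chosen by symbol: the transcription factors Foxc1, Foxd1 and Twist1, the retinoic acid genes Aldh1a2 and Crabp2, the transporters Slc6a13, Slc22a6 and Slc47a1, the prostaglandin D2 synthase Ptgds and the receptor Pdgfra. All 10 were found, among 31406 genes in the table of the 2 groups of the series. The leptomeninges, the thin membranes that cover the brain, are built by fibroblasts that descend from neural crest and mesoderm. These fibroblasts are known for forkhead and basic helix-loop-helix transcription factors, for making retinoic acid, which diffuses into the developing brain, and for solute carriers at the arachnoid barrier between blood and cerebrospinal fluid. Small numbers of them can be carried into primary glial cultures when brain tissue is dissected.

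The RNA of 8 primary cultures of wild-type mice was sequenced. They are labelled as microglia, the immune cells of brain tissue, and were grown from the striatum of neonatal C57/BL6 pups. All cultures were kept for 15 days and then activated for 48 h with lipopolysaccharide (LPS, 0.01% by volume) and interferon-γ (0.002% by volume; the human protein, by the reagent list of the study), and ligands were added at 24, 32 and 40 h. By the sample titles, 4 cultures received SCH 58261, an antagonist of the adenosine A2A receptor (A2A antagonist group), and 4 received SCH 58261 together with 200 nM 2-Cl-IB-MECA, an agonist of the adenosine A3 receptor (dual group). A separate treatment label contradicts this and lists 2-Cl-IB-MECA for cultures whose titles hold SCH 58261 alone. Column names of the count table match the titles, and every direction given here rests on them. By its methods the study used 4 pregnant animals in all, so the 8 cultures cannot each come from a separate litter. Nothing in the labels says whether the cultures of a group came from separate litters. The p-values measure the spread between these libraries, which may be technical. The study also has activated cultures that received vehicle only. Those cultures are no samples of this series and were not analysed here, so the effect of SCH 58261 itself on the identity genes is not part of what follows.

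The total count was between 32630602 and 45878639 per library, and 26155 to 26809 genes were detected. The methods of the study state that meninges were removed during dissection and that purity was judged with antibodies against CD11b, a surface protein of microglia. By that measure the study reports a high purity of microglia. All 12 microglial marker genes examined passed the low-count filter, and their summed level was between 1466 and 1697 CPM (counts per 1000000, scaled for library composition) over the 8 libraries. The 8 astrocyte markers examined passed it as well, with a summed level of 5946 to 6457 CPM. These sums are over different genes and do not measure the share of each cell type. In bulk RNA such as this, fewer cells of a type and less RNA per cell cannot be told apart.

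The identity genes differed widely in level. Levels of different genes are compared here as CPM per kb of gene model, as mean ± SD over the 8 libraries. Ptgds was the highest at 132 ± 38.4 CPM per kb (SD, n = 8). It was followed by Aldh1a2 at 22.5 ± 4.32, Pdgfra at 19.2 ± 0.495 and Foxc1 at 15.6 ± 1.21 CPM per kb. Foxd1 had 8.31 ± 1.01, Twist1 7.84 ± 0.554 and Crabp2 4.66 ± 0.846 CPM per kb. The transporters came last, with 1.053 ± 0.333 CPM per kb for Slc6a13, 0.0914 ± 0.0509 for Slc22a6 and 0.0589 ± 0.0450 for Slc47a1. Between neighbours in this order the 8 values overlapped for Aldh1a2 and Pdgfra, for Foxd1 and Twist1, and for Slc22a6 and Slc47a1, and they did not overlap for the other neighbours. Transcripts of the factors, of Aldh1a2, of Ptgds and of Pdgfra were thus measured well, whereas no library had more than 26 counts of Slc22a6 or Slc47a1.

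The promoters of the identity genes differ in base composition and motifs. RefSeq start sites (GRCm38.p6) were listed for 8 of the 10 genes, Crabp2 and Slc47a1 being without an entry. One promoter is shown for each of the 4 roles, from genes whose 250 bases before the start site hold none of the exons of the gene itself: an enzyme (Aldh1a2, chr9:71215539-71215788), a transcription factor (Twist1, chr12:33957421-33957670), a transporter (Slc22a6, chr19:8617746-8617995) and a receptor (Pdgfra, chr5:75152001-75152250). All 4 lie on the plus strand and are written 5′ to 3′. Capitals mark the TATA element (TATAAA), the GC element (GGGCGG) and the CCAAT element, each searched on both strands.
Aldh1a2: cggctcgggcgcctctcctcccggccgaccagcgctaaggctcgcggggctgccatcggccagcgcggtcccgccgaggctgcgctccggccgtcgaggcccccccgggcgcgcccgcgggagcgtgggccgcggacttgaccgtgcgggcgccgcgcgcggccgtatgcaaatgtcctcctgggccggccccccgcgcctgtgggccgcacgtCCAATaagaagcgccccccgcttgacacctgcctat
Twist1: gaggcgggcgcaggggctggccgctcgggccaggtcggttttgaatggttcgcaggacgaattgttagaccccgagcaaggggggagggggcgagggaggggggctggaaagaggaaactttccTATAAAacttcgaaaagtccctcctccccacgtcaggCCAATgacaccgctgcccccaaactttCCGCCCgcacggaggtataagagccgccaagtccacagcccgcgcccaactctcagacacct
Slc22a6: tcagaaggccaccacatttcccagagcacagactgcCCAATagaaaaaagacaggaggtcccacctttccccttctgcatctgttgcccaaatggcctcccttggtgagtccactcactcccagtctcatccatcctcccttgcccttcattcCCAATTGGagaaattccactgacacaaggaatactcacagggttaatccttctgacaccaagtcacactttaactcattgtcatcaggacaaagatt
Pdgfra: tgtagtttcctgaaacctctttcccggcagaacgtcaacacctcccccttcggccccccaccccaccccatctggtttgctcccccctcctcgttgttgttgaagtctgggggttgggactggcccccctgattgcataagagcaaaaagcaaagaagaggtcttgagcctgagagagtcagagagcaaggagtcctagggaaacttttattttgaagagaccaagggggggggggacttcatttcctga
The Aldh1a2 window had 77.6% G and C with 40 CG dinucleotides, against a median of 6 over the 32841 promoter windows listed, and 98.9% of these windows had as many or fewer. That of Twist1 had 18, that of Pdgfra 4 and that of Slc22a6 none. The TATA element was found in 1 of the 8 windows (Twist1) and in 12.4% of all windows, the GC element in 4 of the 8 and in 32.7% of all, and the CCAAT element in 5 of the 8 and in 33.9% of all. In the Slc22a6 window 2 of the 3 CCAAT matches overlap on opposite strands. CANNTG, the general core that basic helix-loop-helix factors such as Twist1 bind, was found in 6 of the 8 and in 66.2% of all windows. These are matches of letters and say nothing of binding.

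The design sets the A3 receptor agonist on top of the A2A receptor antagonist against the antagonist alone. No difference between the groups was detected for any of the 10 genes. Of the 10 genes, 9 passed the low-count filter (Slc47a1 did not), and 0 of the 9 passed an adjusted p-value of 0.05 in edgeR, where 39 of all 18756 genes tested (0.208%) passed it, 0.048% higher and 0.16% lower in the dual group. Unadjusted p-values were under 0.05 for 0 of the 9, against 2400 (12.8%) of all genes, and DESeq2 gave 0 of the 10 both at an unadjusted p-value under 0.05 and after adjustment, with an adjusted value computed for 5 of them and 417 of 8877 genes (4.7%) called. The values of the groups overlapped for all 10, and 7.42% of all genes tested did not overlap. The fitted value was higher with both ligands for 8 of the 9 and lower for 1, beside 9664 higher and 9092 lower over all genes tested. Their log2 fold changes had a median of 0.078, beside 0.0038 over all genes. Leaving out antagonist replicate 2 or 4 made this median 0.16 or 0.043, and leaving out dual replicate 1, 2 or 3 made it 0.13, 0.15 or 0.039. In edgeR's fit of all 8 libraries the 95% interval of 8 of the 9 fold changes lay within 1.5-fold in both directions (0.585 on the log2 scale). The exception was Slc22a6. The upper limits of Slc6a13 and Ptgds, both 0.55, were close to that bound, and these intervals hold for this fit only. For Ptgds DESeq2 gave an unadjusted p-value of 0.562 at a log2 fold change of 0.17, where edgeR gave 0.336 at 0.18. A difference of 1.5-fold is thus not excluded for Ptgds. The intervals of edgeR rest on estimates of variation drawn partly from other genes. For Slc6a13 the SD of CPM was 43.5% of the mean with the antagonist and 22.2% with both ligands (n = 4). A difference of 1.5-fold is therefore not excluded for Slc6a13 either.

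**Figure D1:**
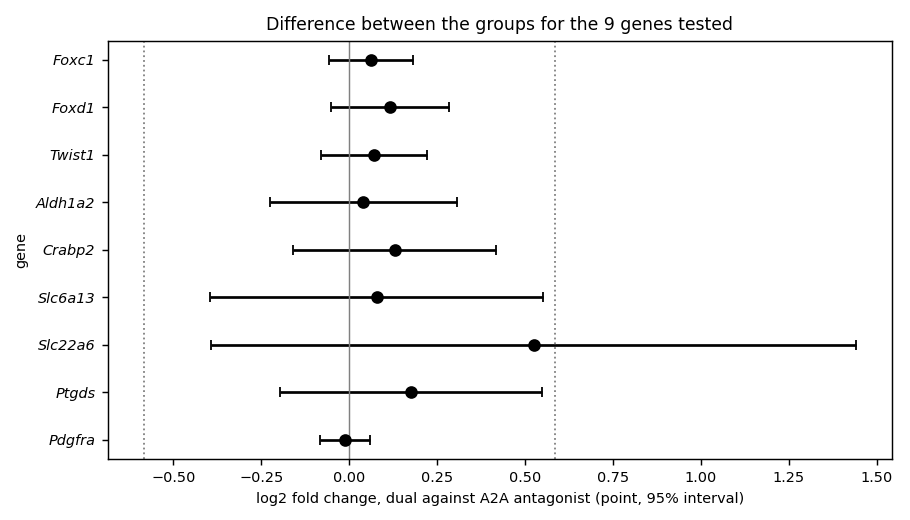
Log2 fold change (x axis) of the 9 identity genes tested (y axis), dual against A2A antagonist group, as edgeR's fitted value (point) with its 95% interval (bar) from 4 libraries per group; dotted lines stand at 1.5-fold. All 9 intervals include 0, the narrowest is that of Pdgfra (-0.082 to 0.059), and only that of Slc22a6 (-0.39 to 1.44) crosses a dotted line.

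Foxc1, a forkhead transcription factor needed for the formation of the meninges (ENSMUSG00000050295, chromosome 13, 31806633 to 31812476, plus strand), had 85.8, 98.7, 90.9 and 80.4 CPM in replicates 1 to 4 of the A2A antagonist group and 97.9, 83.3, 97.0 and 93.2 CPM in those of the dual group. Its 8 values lay close together, with replicate 2 of the A2A antagonist group the highest and replicate 4 of that group the lowest. The log2 fold change was 0.06 (SE 0.06, 95% interval -0.059 to 0.18, adjusted p-value 0.706 in edgeR). Foxd1, another forkhead factor, which marks stromal and meningeal precursors (ENSMUSG00000078302, chromosome 13, 98354242 to 98359305, plus strand), had 36.8, 44.1, 42.3 and 38.3 CPM with the antagonist and 47.9, 36.1, 50.1 and 41.0 CPM with both ligands. Replicates 1 and 3 of the dual group were the highest and replicate 2 of that group the lowest. Of the 9 genes tested Foxd1 had the smallest adjusted p-value, 0.585, at a log2 fold change of 0.12 (SE 0.08, 95% interval -0.053 to 0.28). Twist1, a basic helix-loop-helix factor of mesenchymal cells (ENSMUSG00000035799, chromosome 12, 33957671 to 33959829, plus strand), had 11.7, 12.1, 13.5 and 12.6 CPM against 13.7, 12.4, 14.2 and 12.1 CPM. The highest and the lowest of the 8 libraries were 1.21-fold apart, and the log2 fold change was 0.07 (SE 0.07, 95% interval -0.081 to 0.22, adjusted p-value 0.74).

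Aldh1a2, the retinaldehyde dehydrogenase that makes retinoic acid (ENSMUSG00000013584, chromosome 9, 71215789 to 71296243, plus strand), had 47.2, 60.7, 49.96 and 43.2 CPM with the antagonist. With both ligands it had 36.2, 46.1, 58.0 and 65.4 CPM, so the dual group held both the lowest library (replicate 1) and the highest (replicate 4). The log2 fold change was 0.04 (SE 0.13, 95% interval -0.23 to 0.31, adjusted p-value 0.935), and its sign turned when antagonist replicate 4, dual replicate 3 or dual replicate 4 was left out. Crabp2, a small protein that carries retinoic acid to its nuclear receptors (ENSMUSG00000004885, chromosome 3, 87948666 to 87953376, plus strand), had 5.26, 7.65, 5.24 and 5.42 CPM with the antagonist and 6.50, 4.81, 6.95 and 7.49 CPM with both ligands. Replicate 2 of the A2A antagonist group stood above the other three of its group, and replicate 2 of the dual group was the lowest of all 8. The log2 fold change of Crabp2 was 0.13 (SE 0.14, 95% interval -0.16 to 0.42, adjusted p-value 0.753).

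Slc6a13, a transporter of the neurotransmitter GABA and of taurine (ENSMUSG00000030108, chromosome 6, 121300227 to 121337733, plus strand), had 2.88, 4.84, 2.25 and 1.96 CPM with the antagonist and 2.24, 3.496, 2.96 and 3.83 CPM with both ligands. The counts behind these levels were 73 to 220. Replicate 2 of the A2A antagonist group was the highest of all 8. The log2 fold change was 0.08 (SE 0.23, 95% interval -0.40 to 0.55, adjusted p-value 0.928), with a sign that turned when antagonist replicate 3, antagonist replicate 4 or dual replicate 4 was left out. Slc22a6, an organic anion transporter (ENSMUSG00000024650, chromosome 19, 8617996 to 8628299, plus strand), was counted 5, 26, 11 and 11 times with the antagonist and 5, 25, 26 and 16 times with both ligands. The first replicate was the lowest in both groups. The means were 0.302 ± 0.189 CPM (SD, n = 4) for the antagonist and 0.434 ± 0.225 CPM (SD, n = 4) for both. A log2 fold change of 0.52 (SE 0.44, 95% interval -0.39 to 1.44, adjusted p-value 0.667) was the largest and the least precise of the 9. Slc47a1, an exporter of organic cations and toxins (ENSMUSG00000010122, chromosome 11, 61343401 to 61378345, minus strand), was counted 4, 21, 7 and 2 times with the antagonist and 10, 1, 15 and 7 times with both ligands. These counts scattered over the same range in both groups. With no low-count filter its log2 fold change was 0.051 (SE 0.55, 95% interval -1.051 to 1.15), an interval that includes a 2-fold difference in either direction.

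Ptgds, which makes prostaglandin D2 and is among the most abundant proteins that the leptomeninges secrete into the cerebrospinal fluid (ENSMUSG00000015090, chromosome 2, 25466709 to 25470046, minus strand), had 171, 332, 156 and 159 CPM with the antagonist, from 6541 to 15090 counts. With both ligands it had 177, 225, 272 and 250 CPM. Replicate 2 of the A2A antagonist group was 1.94-fold above the highest of the other three libraries of its group and also above all 4 of the dual group, whereas the other three lay below all 4. The log2 fold change was 0.18 (SE 0.18, 95% interval -0.20 to 0.55, adjusted p-value 0.735). Without that library, the highest of its group, it was necessarily larger, at 0.51 (adjusted p-value 0.0608 in edgeR). Pdgfra, the receptor for platelet-derived growth factor that marks fibroblasts and also oligodendrocyte precursors (ENSMUSG00000029231, chromosome 5, 75152292 to 75198215, plus strand), had 193, 194, 189 and 196 CPM with the antagonist and 195, 184, 199 and 188 CPM with both ligands. Its highest and lowest libraries were 1.08-fold apart. The log2 fold change of -0.012 (SE 0.03, 95% interval -0.082 to 0.059, adjusted p-value 0.928) was the smallest and the most precise of the 9. Of the 31-base words of Pdgfra, 5.57% also occur in another gene, mostly the antisense gene Gm42802, whose exons overlap 456 of its 10024 exonic bases. Whether the counting used strand was not stated, so that part of its count is uncertain. The precursor markers Olig2 and Sox10 stood beside it at 115 ± 1.29 and 40.0 ± 1.33 CPM with the antagonist (SD, n = 4), and how much of the Pdgfra count came from each cell type was not tested.

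**Figure D2:**
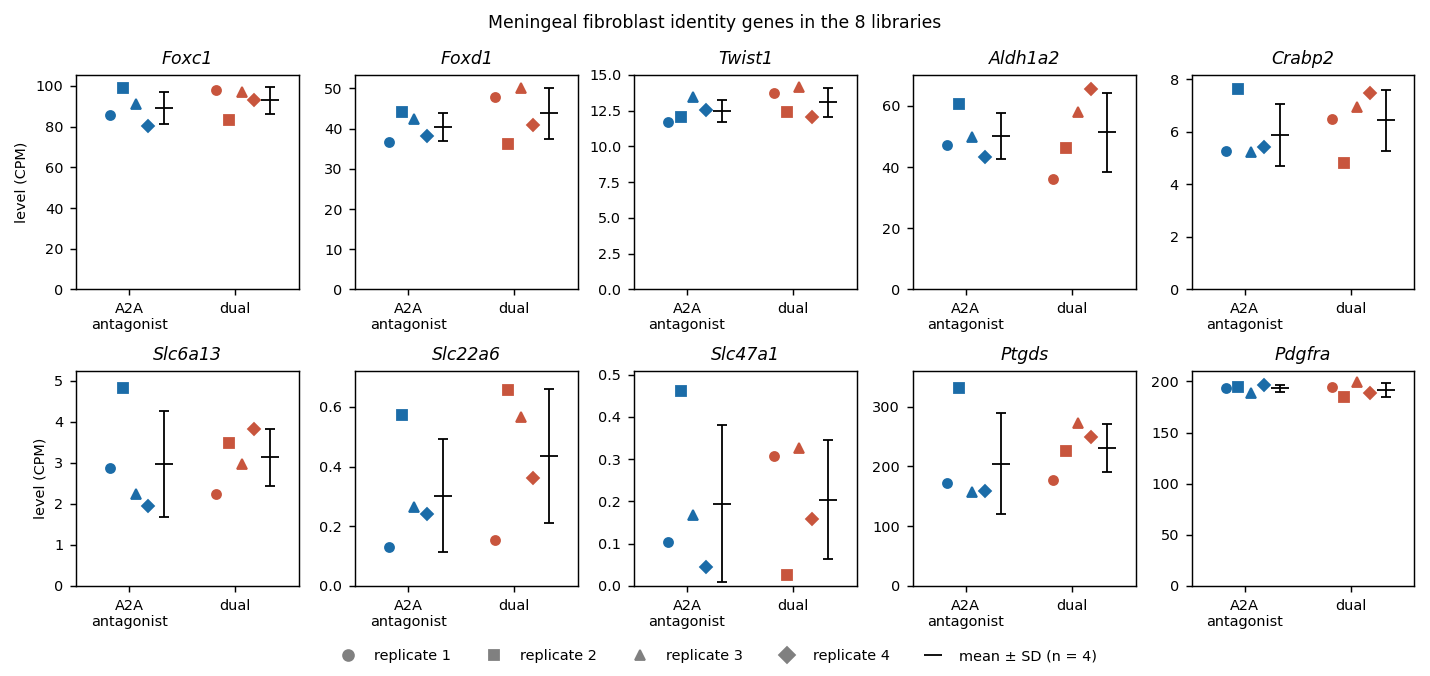
Level (y axis, CPM, linear from 0) of each of the 10 identity genes in the 4 libraries of the A2A antagonist group and the 4 of the dual group (x axis); symbols mark the replicate number and the bar is the mean ± SD of a group. The points of the groups overlap in all 10 panels, and those of Pdgfra lie almost on one line (184 to 199 CPM). Replicate 2 of the A2A antagonist group stands above the rest of its group for Crabp2, Ptgds and the 3 transporters, and by less for Aldh1a2, Foxc1 and Foxd1.

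The identity genes varied between replicates to very different extents. The biological coefficient of variation, which edgeR estimates between replicates beyond counting noise, was 3.68% for Pdgfra, a value that 4.71% of the genes tested had or fell below, and 5.80%, 6.21% and 7.84% for Foxc1, Twist1 and Foxd1, beside a median of 6.05% over all genes. It was 12.5% for both retinoic acid genes, 17.5% for Ptgds, 21% for Slc6a13 and 33.1% for Slc22a6, and 83.6%, 90.6% and 99.3% of the genes tested had values as low as or lower than the last 3. These estimates are drawn partly from other genes and can differ from the plain spread. With the antagonist and with both ligands the SD of CPM was 41.6% and 17.6% of the mean for Ptgds. It was 43.5% and 22.2% for Slc6a13, 14.9% and 25.1% for Aldh1a2, and 1.62% and 3.54% for Pdgfra (n = 4). Replicates thus varied less for the transcription factors and Pdgfra than for the genes of retinoic acid, prostaglandin D2 and solute transport.

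Single libraries held part of this spread. Replicate 2 of the A2A antagonist group was the highest of the 8 libraries for 4 of the 9 genes tested, where it was the highest for 11.02% of all genes. It exceeded the highest of the other three antagonist libraries by over 25% for Ptgds, Slc6a13 and Crabp2, which are 3 of the 8 identity genes whose mean log2 CPM was 1 or more, but only for 56 of the 13744 genes at that level (0.407%). This threshold was set after the values were seen. Among 25 other meningeal fibroblast genes at that level it did so for 7, named here after their values were seen: the forkhead factor Foxc2, the junction genes Cldn11 and Gjb2, the transporters Slc6a20a, Slc13a4 and Slc22a8, and Mgp, which codes for matrix Gla protein. Slc6a20a had 12.4 CPM in this library and 5.75 to 6.53 CPM in the other three, and Gjb2 had 39.4 CPM and 24.96 to 26.8 CPM. In replicates 1 to 4 of the dual group Slc6a20a had 4.94, 8.75, 12.03 and 11.98 CPM, and Gjb2 had 27.8, 27.5, 36.8 and 35.9 CPM. Replicate 3 of the dual group was the highest of the 8 libraries for 3 identity genes and 7 other meningeal fibroblast genes (10.36% of all genes). Of 12 collagen and matrix genes none exceeded the other antagonist libraries by over 25% in replicate 2 of that group. No marker at that level did so among 11 of microglia, 8 of astrocytes and 4 each of mural cells, endothelium and choroid plexus. Mag, 1 of 5 oligodendrocyte markers at that level, and Stra6, 1 of 12 genes of the retinoid list, did so. At the share over all genes (0.407%) none would be usual in lists this short. Pdgfra in this library was at 1.01 times the median of the other three. With this library left out, the log2 fold changes of Ptgds (0.51), Slc6a13 (0.42), Slc22a6 (1.04) and Crabp2 (0.28) had unadjusted p-values in edgeR of 2.8e-05, 0.0346, 0.0392 and 0.0400, and after adjustment 0 of the identity genes were called. Over all genes, 1929 of 18994 (10.2%) passed the unadjusted threshold in that fit and 5 (0.0263%) the adjusted one. The library was singled out after its values were seen, and these 4 identity genes were highest in it within their group. Leaving it out raises their fold changes by construction, so these p-values are no separate evidence of a difference.

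**Figure D3:**
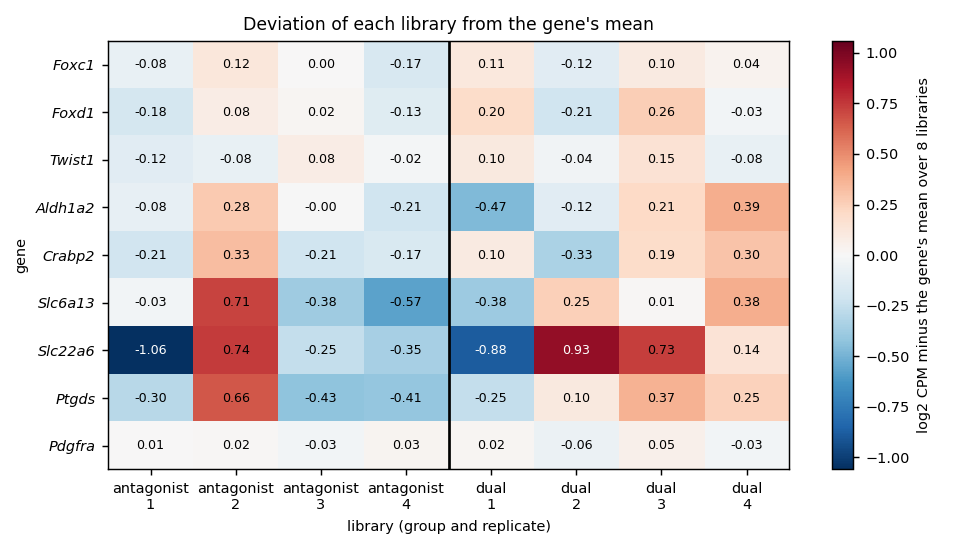
Log2 CPM of each library (x axis) minus the mean of the gene over all 8 libraries (colour and printed value), for the 9 identity genes tested (y axis). Replicate 2 of the A2A antagonist group is high for Slc6a13 (0.71), Slc22a6 (0.74) and Ptgds (0.66), replicate 1 of the dual group is low for Aldh1a2 (-0.47), Slc6a13 (-0.38) and Slc22a6 (-0.88), and the row of Pdgfra stays between -0.062 and 0.052.

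Replicate 1 of the dual group was below the mean of the 8 libraries for Aldh1a2, Ptgds, Slc6a13 and Slc22a6 and above it for the other 5 identity genes tested, by 0.018 (Pdgfra) to 0.20 (Foxd1) on the log2 scale. It was the highest library for 9 of the 12 collagen and matrix genes (15.5% of all genes were highest there). Col3a1, for example, had 922 CPM in it and 706 to 831 CPM in the other three dual libraries, a gene picked after its values were seen. No identity gene was highest in that library. Choroid plexus epithelium and oligodendrocytes are also known to express Ptgds, and their markers were read beside these values. Ttr, the defining secreted protein of choroid plexus, had 0.704 CPM in replicate 2 of the A2A antagonist group and 1.48 CPM in replicate 3 of the dual group, 0 counts in replicate 3 of the A2A antagonist group and replicate 2 of the dual group, and at most 0.184 CPM elsewhere. The summed level of the 8 choroid plexus markers was between 93.5 and 118 CPM with the antagonist and between 102 and 121 CPM with both ligands. The oligodendrocyte marker Mag had 8.82 CPM in replicate 2 of the A2A antagonist group and 6.46 to 6.71 CPM in the other three, and the 6 oligodendrocyte markers summed to 205 to 218 CPM with the antagonist and 184 to 229 CPM with both ligands. The marker Aqp1 held most of the choroid plexus sum and Cnp most of the oligodendrocyte sum, so each sum mainly follows a single gene. The part of either cell type in the levels of Ptgds was not tested.

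The pathways that the identity genes belong to were examined in the same fit. Of 19 other genes of retinoid uptake, synthesis, breakdown and reception, 14 were tested and 0 were called, 7 fitted higher and 7 lower, with a median log2 fold change of 0.0038. The gene of highest mean CPM was Rdh10, which makes the retinaldehyde that Aldh1a2 uses. It averaged 141 ± 2.42 CPM with the antagonist and 146 ± 1.78 CPM with both ligands (SD, n = 4). Stra6, the receptor that takes up retinol, had 92.6 CPM in replicate 2 of the A2A antagonist group and 62.0 to 66.2 CPM in the other three. Of 9 other genes of the prostaglandin D2 pathway, 8 were tested and 0 called, and the gene of highest mean CPM, the inducible cyclooxygenase gene Ptgs2, had 221 ± 13.4 CPM (SD, n = 4) against 239 ± 21 CPM (SD, n = 4), a log2 fold change of 0.12 (SE 0.05, adjusted p-value 0.356). Of 7 genes of ligands, the partner receptor and activating proteases of platelet-derived growth factor, all 7 were tested and 0 were called. Plat, a protease that activates one of the ligands, averaged 205 ± 5.62 CPM with the antagonist and 206 ± 8.47 CPM with both ligands (SD, n = 4). Of 10 relatives of the 3 transporters, 7 were tested and 0 called.

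Among 27 other genes of meningeal fibroblasts, 26 were tested. Fitted values were higher with both ligands for 23 and lower for 3, at a median of 0.11 (log2). Over all 18756 genes tested 9664 were higher and 9092 lower. Many of these meningeal genes were high in the same libraries, so their signs are not separate observations. Unadjusted p-values in edgeR were under 0.05 for 4 higher and 1 lower (12.8% of all genes). The one gene called was Slc13a3, a sodium-dependent transporter of dicarboxylates that is also expressed by astrocytes. It had 70.8, 76.9, 70.1 and 77.5 CPM with the antagonist and 61.0, 62.7, 60.7 and 63.0 CPM with both ligands. Every dual library was below every antagonist library, and the log2 fold change was -0.26 (SE 0.04, adjusted p-value 0.0240 in edgeR). The gene of highest mean CPM in this list, Cyp1b1, a cytochrome P450 that can oxidise retinoids and steroids, averaged 629 ± 9.07 CPM with the antagonist and 649 ± 16.7 CPM with both ligands (SD, n = 4). The 12 collagen and matrix genes had 9 fitted higher and 3 lower, at a median log2 fold change of 0.078. In edgeR and in DESeq2 0 were called (1, Fn1, in edgeR with no low-count filter). Of these genes 4 were higher at an unadjusted p-value under 0.05 in edgeR (12.8% of all genes in either direction). Sparc, the one of highest mean CPM, had 2474 ± 81.4 and 2418 ± 93.5 CPM (SD, n = 4).

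**Figure D4:**
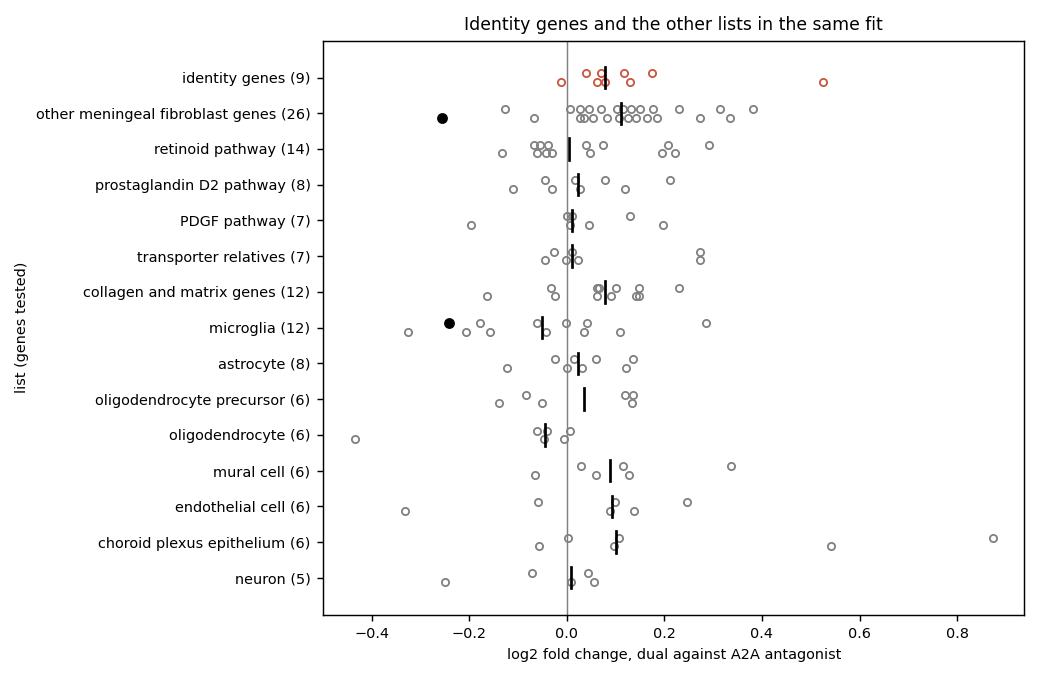
Log2 fold change (x axis, dual against A2A antagonist group) of every tested gene of the identity genes (red) and the other lists (grey; y axis, number of genes tested in parentheses); black filled points are genes with an adjusted p-value under 0.05 in edgeR and vertical bars are medians. The 9 identity genes lie between -0.012 and 0.52, and the filled points are Slc13a3 (-0.26) and C1qa (-0.24).

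Markers of other cells were read in the same fit, as values beside those of the identity genes. C1qa, the complement component C1q subunit and the microglial marker of highest mean CPM, was the other gene called in these lists, at 476 ± 29.6 CPM with the antagonist and 403 ± 11.6 CPM with both ligands (SD, n = 4), which is -0.24 on the log2 scale (SE 0.04, adjusted p-value 0.0240 in edgeR). Over the 12 microglial markers the median was -0.051. Unadjusted p-values in edgeR were under 0.05 for 5 lower and 1 higher (12.8% of all genes), and 5 had groups that did not overlap (7.42% of all genes). DESeq2 computed an adjusted value for 9 of the 12 and called 6 of them (4.7% of all genes with an adjusted value). With no low-count filter edgeR called 5 of the 12, and 366 genes in all. Any part of this in the identity genes was not tested. The medians were 0.023 for 8 astrocyte markers (the gene of highest mean CPM, here and below, being Slc1a3, 1865 ± 33.8 and 1884 ± 93.0 CPM, SD, n = 4), 0.034 for 6 markers of oligodendrocyte precursors (Olig1, 272 ± 12.7 and 247 ± 14.7 CPM) and -0.044 for 6 of oligodendrocytes (Cnp, 122 ± 1.26 and 119 ± 2.81 CPM). They were 0.088 for 6 mural cell markers (Acta2, 87.4 ± 6.11 and 91.2 ± 3.53 CPM), 0.093 for 6 endothelial markers (Slco1a4, 74.2 ± 1.76 and 78.8 ± 4.43 CPM), 0.10 for 6 choroid plexus markers (Aqp1, 86.8 ± 10.8 and 92.9 ± 8.11 CPM) and 0.0091 for 5 neuronal markers (Map2, 95.01 ± 3.03 and 98.7 ± 5.25 CPM). In edgeR 0 genes of these last 7 lists were called, and DESeq2 and edgeR with no low-count filter each called 1, Olig1 (adjusted p-values 0.0409 and 0.0293), which was lower with both ligands. Exons of Slc6a20a, Col3a1, Fn1, Cnp, Olig1 and Map2 overlap exons of other annotated genes, so their counts are uncertain to that extent.

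The genes whose pattern over the 8 libraries was most like that of the identity genes were found by Pearson r between their log2 CPM and the mean scaled log2 CPM of the 9 identity genes tested. The 5 highest of 13736 were Tgif2 (0.976), 4732487G21Rik (0.968), C2 (0.951), Cavin2 (0.929) and Cilp2 (0.926). With 8 libraries and so many genes some high values arise in any case, and 28 genes were above 0.9. Cilp2, Cavin2 and 4732487G21Rik were also among the 56 genes that stood out in replicate 2 of the A2A antagonist group.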

How the data were processed

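RNA of 8 libraries was sequenced with paired ends. The authors aligned cleaned reads to an Ensembl mouse genome (mm10 per the labels) with HISAT2 and counted reads per gene with featureCounts 1.5.0-p3. The deposited values used here are raw counts per gene, not normalized and not pooled. The tables also hold normalized values, FPKM and the fold changes and p-values of the authors' own comparisons, and none of these were used. The second table holds 9 columns of per-sample values of 3 control libraries that match no sample of this series, and these were not used either. The tables share 30302 genes with 0 differing counts in the antagonist libraries, and all 10 identity genes stand in both under the same symbol. Coordinates are those of the deposited tables, and 9 of the 10 genes had the same coordinates in GENCODE M21 (GRCm38).

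Counts were tested with edgeR 4.0.16 (R 4.3.3): filterByExpr with a minimum count of 10, TMM scaling, the quasi-likelihood F test without covariates, two-sided p-values adjusted by Benjamini-Hochberg over all genes tested, and calls at 0.05. Standard errors and 95% intervals came from the F statistics. Two-sided exact permutation tests over the 70 arrangements, whose smallest possible p-value is 0.0286, gave 0.314 to 0.971 for the 10 genes. DESeq2 1.42.0 (independent filtering at 0.05) was an alternative. Other alternatives were median-of-ratios size factors, no filter, a replicate block, protein-coding genes only and leaving out each library. Scripts were tested on simulated counts. Named genes are the 10 identity genes, the called genes and the gene of highest mean CPM of each list, and the 5 genes most alike in pattern. Outside this rule, Stra6, Ttr, Olig2, Sox10, Col3a1, Fn1, Mag and the 7 other meningeal genes that stood out in antagonist replicate 2 were named after their values were seen. One gene that this rule names is not reported here. The identity genes and all lists were chosen with earlier results of these data known, so their counts and medians are descriptions. Same-numbered libraries of the groups did not deviate together over all genes tested.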

Additional observations from a re-analysis of the deposited data

Results flagged for a closer look

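Of the 20 groups of 4 libraries examined for the 10 identity genes, 2 held a library far from the other three by Dixon's test, where chance would mark about 1 in 20. Both were replicate 2 of the A2A antagonist group. For Crabp2 its distance from the nearest library was 0.9275 of the range of the group, at 7.65 CPM beside 5.24 to 5.42 CPM. For Ptgds this share was 0.9157, at 332 CPM beside 156 to 171 CPM. The same library also held the highest values of Slc6a13, Slc22a6 and Slc47a1 in its group, with 220, 26 and 21 counts. It was the highest of its group for Aldh1a2, Foxc1 and Foxd1 as well, with shares of 0.615, 0.427 and 0.249. For all of these genes the share stayed under the critical value. Twist1 and Pdgfra were highest in other libraries of the group. The origin of the difference was not tested.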

How the results depend on the processing

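No identity gene was called under any alternative tried. Their median log2 fold change was 0.078 in the main fit and between 0.039 and 0.16 when single libraries were left out. Without replicate 2 of the A2A antagonist group 4 identity genes had an unadjusted p-value under 0.05 in edgeR (as had 10.2% of all genes), all higher in the dual group: Ptgds (0.51, adjusted p-value 0.0608), Slc6a13 (0.42, 0.45), Crabp2 (0.28, 0.463) and Slc22a6 (1.04, 0.461). All 4 were highest of their group in the library left out, so their higher fold changes follow from that choice. Over all alternatives the adjusted p-value of Ptgds was between 0.0608 and 0.938. When single libraries were left out, the log2 fold change changed sign for Aldh1a2 (-0.096 to 0.17), Slc6a13 (-0.083 to 0.42) and Pdgfra (-0.034 to 0.0067). The number of genes called over all genes was 39 and became 366 without the low-count filter, 417 with DESeq2, 63 among protein-coding genes and 0 to 172 when 1 library was left out (0 for antagonist replicate 4 and for dual replicate 3, with 1802 and 2092 genes at an unadjusted p-value under 0.05 in edgeR, 5 and 6 for antagonist replicates 2 and 3, and 172 for antagonist replicate 1). The causes were not tested. With the replicate number as a block 17 genes were called, 0 of them identity genes, whose median was 0.11. Same-numbered libraries correlated at -0.0529 to 0.0408 in their deviations from the group means over all genes tested. No pairing by number was seen, though a link confined to part of the genes would not show in this measure. Slc22a6 and Slc47a1 had 1 to 26 counts per library, and depth and the spread between replicates were not separated for them. DESeq2 called 6 microglial markers and Olig1, where edgeR called C1qa.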
